A study of Homo sapiens with 18 samples.

Results

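RGS genes encode regulators of G protein signalling, and 8 of them (RGS1, RGS2, RGS3, RGS10, RGS13, RGS14, RGS16 and RGS19) were followed in JEKO1 and MAVER, cell lines of mantle cell lymphoma, a B cell cancer. They were chosen by name, with earlier results of these data known. All 8 were found among the 25369 genes listed in each of 2 tables of RNA-seq values, 1 table per line. JEKO1 was treated with the solvent DMSO or with IB. MAVER was treated with DMSO, with IB, with KPT or with PU. Each treatment lasted 6 h, and each of the 6 groups has n = 3 libraries, lettered A to C. IB was read as ibrutinib (0.4 µM), which blocks the kinase BTK of the B cell receptor pathway, and KPT as selinexor (1.5 µM), which blocks the nuclear exporter XPO1, because the series description names these drugs. What PU stands for, and its dose, was not found in the labels. Each line stands for 1 tumour, grown in medium without the other cells of a lymph node.

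A receptor coupled to a G protein acts by loading the G alpha subunit with GTP, which frees it from the G beta and gamma subunits. RGS proteins bind the loaded G alpha subunit and speed up its GTP hydrolysis, which ends the signal. In B cells these receptors include those for chemokines, sphingosine-1-phosphate and prostaglandins, and RGS proteins limit how strongly and for how long a cell answers them, for example when it migrates into or out of a lymphoid follicle. Many RGS transcripts are themselves induced by receptor signals, so that their level can feed back on the pathway.

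The labelled cell type was checked first. The B cell markers MS4A1, CD79A, CD79B, PAX5 and CD22 had reads in every group, as did CCND1 and SOX11, which mark mantle cell lymphoma. The listed T cell markers (4 of 5 were in the tables) summed to at most 15.7 normalized counts in any JEKO1 library and at most 1.19 in any MAVER library. The 4 monocyte and macrophage markers summed to at most 11.4. Recovered depth ran from 5374226 to 17040599 reads per library, and the KPT group was the shallowest. RNA45S5, the ribosomal RNA precursor, stood at 53819 and 66933 normalized counts in KPT libraries A and C and at 65331 in JEKO1 DMSO library C, against 7920 to 32274 in the others. The labels do not say how the replicate cultures were separated, so the spread behind each p-value is that of libraries and may be technical. Every direction given for JEKO1 holds for its labels as given: exchanged DMSO and IB labels there cannot be told apart from lines that respond in opposite ways. The tables were normalized separately and hold no value per gene length, so levels are compared neither between lines nor between genes.

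The sequences upstream of 4 members are shown as a description, and their part in the results was not tested. RGS1 and RGS2 had the largest changes, and RGS13 lies between these on chromosome 1 and was almost unread. RGS16 was the only tested member called with IB in MAVER and not in JEKO1. The reverse held for RGS1, RGS3 and RGS14, which were called with IB in JEKO1 and not in MAVER. In the RefSeq assembly GRCh38.p14 the protein-coding genes RGS1, RGS13 and RGS2 follow each other directly, RGS16 lies beside RGS8 on the same chromosome, and RGS10 lies beside the receptor kinase gene GRK5 on chromosome 10. Each run below is the 250 bases before the annotated start in RefSeq, 5′ to 3′ on the gene's own strand. Capitals mark letters that match a searched motif, and a run with no capitals has no match. The windows are chr1:192575523-192575772 on the plus strand for RGS1, chr1:192635897-192636146 on the plus strand for RGS13, chr1:192808789-192809038 on the plus strand for RGS2 and chr1:182604390-182604639 on the minus strand for RGS16.
RGS1: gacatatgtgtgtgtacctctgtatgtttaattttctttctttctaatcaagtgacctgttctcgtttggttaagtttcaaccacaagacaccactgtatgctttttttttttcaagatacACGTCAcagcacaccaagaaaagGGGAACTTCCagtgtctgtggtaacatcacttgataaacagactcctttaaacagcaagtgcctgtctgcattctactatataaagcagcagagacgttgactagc
RGS13: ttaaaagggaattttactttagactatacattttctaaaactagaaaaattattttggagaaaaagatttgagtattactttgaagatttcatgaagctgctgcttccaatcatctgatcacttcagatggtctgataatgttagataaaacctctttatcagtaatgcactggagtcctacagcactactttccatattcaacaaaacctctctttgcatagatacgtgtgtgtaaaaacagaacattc
RGS2: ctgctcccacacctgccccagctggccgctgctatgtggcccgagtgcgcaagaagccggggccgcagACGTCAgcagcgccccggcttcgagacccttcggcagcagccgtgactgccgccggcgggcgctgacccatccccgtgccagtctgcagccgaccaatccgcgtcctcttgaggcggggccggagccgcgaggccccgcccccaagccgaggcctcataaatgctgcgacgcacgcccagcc
RGS16: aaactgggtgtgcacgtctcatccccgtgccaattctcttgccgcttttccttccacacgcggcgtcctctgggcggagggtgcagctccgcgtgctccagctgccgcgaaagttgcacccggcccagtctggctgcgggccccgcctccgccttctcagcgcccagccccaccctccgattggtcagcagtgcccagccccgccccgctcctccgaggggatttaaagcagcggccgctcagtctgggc

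Motifs were searched on both strands. For the cAMP response element (CRE) the letters were TGACGTCA, and its core, TGACGT, which every full CRE contains, was added after the sequences had been seen. For AP-1 the letters were TGANTCA. For FOXO factors they were TGTTTAC, and for EGR factors GCGTGGGCG. The E-box was searched as CACGTG, and NF-kB by its usual degenerate site. RGS1 and RGS2 each held the core once, written ACGTCA on the printed strand, at -129 to -124 before the RGS1 start and at -182 to -177 before the RGS2 start. Of 35116 windows of this length over all genes of the RefSeq table, 7.1% held this core and 1.65% the full CRE. The RGS1 window also held an NF-kB match, GGGAACTTCC, at -106 to -97, a motif found in 9.96% of all windows. The 8 members had 14 windows between them. Besides those named, the matches were 1 E-box in a window of RGS3 (-159 to -154) and 1 in a window of RGS19 (-223 to -218), a motif held by 6.34% of all windows. AP-1 (6.57% of all windows), FOXO (2.98%) and EGR (0.72%) had no match in these windows. GC content was 39.2% for RGS1, 32% for RGS13, 72.8% for RGS2 and 68.4% for RGS16, beside a median of 58% over all windows. A match describes the letters and does not show a bound factor.

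Most of the chosen RGS genes were higher in JEKO1 libraries labelled IB. Of the 7 members with a mean of at least 10 normalized counts, 6 rose and 0 fell, with a median log2 fold change of 0.72 beside -0.01 over all genes tested. Of all 11609 genes tested in JEKO1, 21.9% rose and 20.2% fell by the same rule (limma, adjusted p under 0.05), which is used for "rose" and "fell" throughout. Because the members were chosen with earlier results known, such shares are given for scale and are no test of the list. In MAVER, IB moved the members both ways: 1 rose and 3 fell, where 10.1% of 11099 genes rose and 9.65% fell. With KPT 2 rose and 2 fell (27.3% and 28.5% of all genes). With PU 3 rose and 1 fell (27.6% and 27.5%). The 3 MAVER comparisons share their DMSO libraries. Markers of stroma moved with the JEKO1 comparison at a low level: the 3 listed (COL1A1, COL1A2, PDGFRB) summed to 5.59 to 9.54 normalized counts in the DMSO libraries and 16.1 to 32.4 in the IB libraries, with COL1A2 at 0 in all of them. Their part in the JEKO1 results was not tested.

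**Figure D1:**
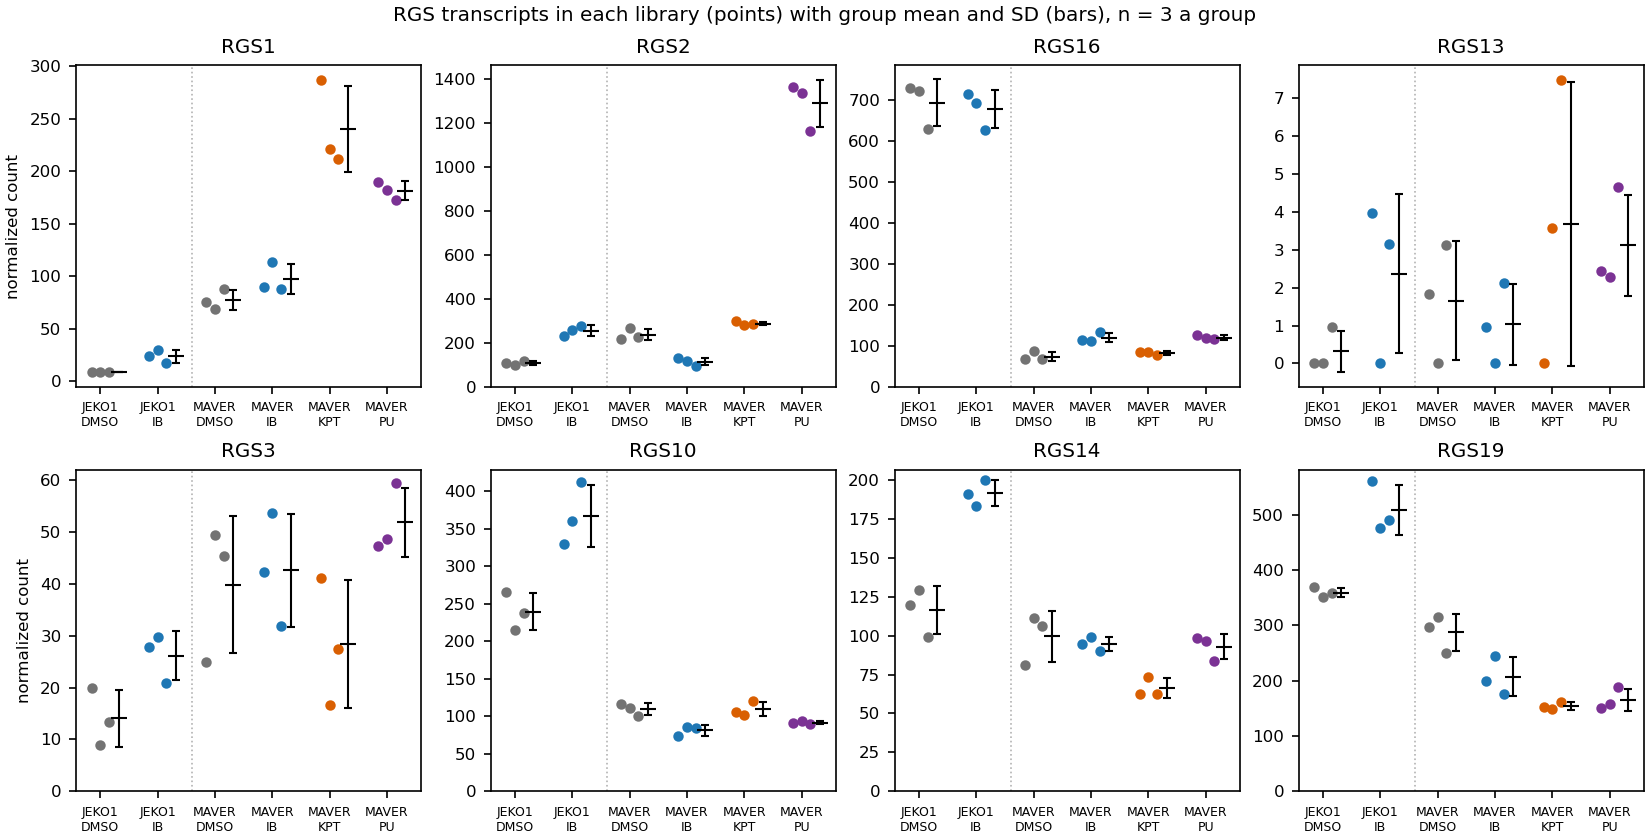
Normalized counts of the 8 RGS genes in each library (points, A to C from left to right) with the mean and SD of each group of 3 (bars); the dotted line separates the 2 tables, whose levels are not compared. RGS2 in the PU libraries stands at 1166 to 1365, above every other MAVER library, and RGS13 does not pass 7.48 in any library.

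RGS1 is abundant in germinal centre B cells and dampens their migration towards the chemokines that CXCR4 and CXCR5 bind. In JEKO1 the DMSO libraries A to C stood at 8.62, 8.94 and 8.59 normalized counts and the IB libraries at 23.8, 29.8 and 17.8. All 3 IB libraries lay above all DMSO libraries. The rise was 2.73-fold in the means, from 8.72 ± 0.19 to 23.8 ± 6.01 (SD, n = 3), and the log2 fold change was 1.32 ± 0.31 (SE; limma adjusted p = 0.0018). It rests on few reads, 27 over the DMSO libraries and 73 over the IB libraries. In MAVER the DMSO libraries stood at 75.5, 68.6 and 87.5. With IB they stood at 89.6, 114 and 88.1, which were all above DMSO, but library C of each group lay close together at 88.1 and 87.5. That difference was not called (log2 fold change 0.33, 95% interval 0.07 to 0.59, limma adjusted p = 0.0715), and it was called when DMSO library C was left out (adjusted p = 0.0377).

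KPT gave the largest RGS1 level in MAVER. The KPT libraries stood at 287, 221 and 212 and the PU libraries at 190 (A), 182 (B) and 172 (C) normalized counts. None of these overlapped with DMSO or IB, and every KPT library was above every PU library. RGS1 rose 3.11-fold with KPT (239.9 ± 41 against 77.2 ± 9.6, SD, n = 3), which is 1.62 ± 0.13 on the log2 scale (SE; limma adjusted p = 7.54e-14). It rose 2.35-fold with PU (182 ± 8.81; 1.23 ± 0.13, adjusted p = 1.1e-10). Set directly against each other, PU was below KPT by a log2 difference of -0.39 ± 0.13 (adjusted p = 0.00966). Without KPT library A that difference was not called (-0.25, adjusted p = 0.121). With KPT libraries A and C, which are rich in RNA45S5, both left out, only KPT library B remains, and the fit takes its spread from the other libraries. Any p against this lone library therefore assumes that it varies as they do. PU was lower than KPT library B alone by -0.28 (adjusted p = 0.2).

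RGS2 acts mainly on G alpha q and is known as a gene that cAMP, stress and antigen receptor signals induce. It had the largest single change of the members. In JEKO1 the DMSO libraries stood at 109.5, 99.5 and 116 normalized counts and the IB libraries at 229.5, 260.3 and 277, with no overlap. This was a rise of 2.36-fold (log2 fold change 1.23 ± 0.11 SE, limma adjusted p = 1.77e-08). In MAVER the DMSO libraries stood at 219, 267 and 226 and the IB libraries at 130.0, 119.6 and 96.6. Here IB lay below DMSO in every library, and RGS2 fell 2.06-fold in the means (-1.04 ± 0.09, adjusted p = 7.44e-12). The same drug label thus went with more RGS2 in one line and less in the other.

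With PU the 3 MAVER libraries stood at 1365, 1339 and 1166 normalized counts for RGS2. All 3 lay far above every other MAVER library. The means were 1290.0 ± 108 against 237 ± 25.7 (SD, n = 3), a rise of 5.44-fold (log2 fold change 2.44 ± 0.09 SE, limma adjusted p = 3.49e-24). With KPT the libraries stood at 298, 282 and 285, just above the DMSO range. RGS2 rose by a small amount there (0.28 ± 0.09, adjusted p = 0.00885), a call that was lost without DMSO library A (0.23, adjusted p = 0.0609). KPT library B alone, an arm of 1 library, gave a similar difference of 0.25 (adjusted p = 0.125). The stroma marker COL1A1 moved with the PU result. Summed over the 3 stroma markers, the PU libraries held 659 to 747 normalized counts against 62.5 to 74.6 with DMSO, 45.8 to 54.9 with IB and 52.3 to 69.8 with KPT. COL1A1 gave nearly all of it (up to 733), while COL1A2 was at most 2.38 and PDGFRB at most 12.9 in MAVER. The part of these transcripts in the PU results was not tested. In such bulk libraries, a change in the share of cells of a type and a change in RNA per cell cannot be told apart.

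RGS16 acts on G alpha i and G alpha q and limits responses to chemokines. In JEKO1 the DMSO libraries stood at 731, 723 and 629 and the IB libraries at 716, 694 and 627 normalized counts. The groups overlapped, and the log2 difference was -0.03 (95% interval -0.18 to 0.11, limma adjusted p = 0.751). In MAVER it stood at 67.2, 86.7 and 68.0 with DMSO and at 115, 113 and 134 with IB. All IB libraries lay above DMSO, and RGS16 rose 1.63-fold (log2 fold change 0.70 ± 0.14 SE, adjusted p = 0.000125). The PU libraries, at 126, 119 and 116, overlapped with the IB libraries and were likewise above DMSO (0.71 ± 0.14, adjusted p = 2.86e-05). The KPT libraries, at 86.1, 84.3 and 77.3, overlapped with DMSO and were not called (0.16, 95% interval -0.11 to 0.44).

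RGS3 acts on G alpha i and G alpha q and has several isoforms from separate starts, which gene counts cannot tell apart. Its reads were few and its libraries scattered. In JEKO1 it stood at 19.8, 8.94 and 13.4 with DMSO and at 27.8, 29.8 and 20.9 normalized counts with IB. These did not overlap and were called (log2 fold change 0.90 ± 0.31 SE, limma adjusted p = 0.0223), but the call was lost without DMSO library B (0.109), IB library A (0.0737) or IB library B (0.0955). The MAVER DMSO libraries, at 24.9, 49.5 and 45.3, overlapped with the IB (42.4, 53.6, 31.9), KPT (41.2, 16.6, 27.4) and PU (47.4, 48.7, 59.6) libraries. No drug was called against DMSO, with log2 differences of 0.12 (95% interval -0.40 to 0.64) for IB, -0.51 (-1.03 to 0.01) for KPT and 0.42 (-0.10 to 0.94) for PU. The KPT difference was called without DMSO library A (-0.81, adjusted p = 0.0115) and without KPT library A (-0.81, 0.0106). KPT library B alone, the lowest of the 3 and an arm of 1 library, differed from DMSO by -1.16 (0.00363).

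RGS13, a small RGS protein known from germinal centre B cells and mast cells, was at the edge of detection. JEKO1 held 0, 0 and 1 reads in the DMSO libraries and 5, 0 and 3 in the IB libraries. MAVER held 2, 0 and 4 with DMSO, 1, 0 and 2 with IB, 0, 3 and 6 with KPT and 2, 4 and 5 with PU. No library held more than 6 reads, so RGS13 fell under the filter of a mean of 10 normalized counts, entered no test and is given no fold change. Its neighbours RGS1 and RGS2 on chromosome 1 were both read in every library.

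RGS10 and RGS14 act on G alpha i, and RGS14 also has a GoLoco motif, which holds G alpha i in its GDP form, and domains that bind small GTPases. RGS10 in JEKO1 stood at 266, 216 and 238 normalized counts with DMSO and 330.4, 360.0 and 412 with IB. RGS14 there stood at 119.9, 129.6 and 99.2 with DMSO and 191, 183 and 199.8 with IB. For both genes every IB library was above every DMSO library. The rises were 1.53-fold for RGS10 (log2 fold change 0.61 ± 0.10 SE, limma adjusted p = 3.04e-05) and 1.65-fold for RGS14 (0.72 ± 0.12, adjusted p = 4.36e-05).

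In MAVER these 2 genes parted. RGS10 stood at 116, 111 and 101 normalized counts with DMSO and lower with IB, at 73.2, 86.0 and 83.9, without overlap. It fell with IB (log2 fold change -0.43 ± 0.13 SE, limma adjusted p = 0.0168), although the call was lost without DMSO library A (0.0808), DMSO library B (0.0527) or IB library A (0.0944). With KPT the RGS10 libraries (106, 102, 121) overlapped with DMSO, and the log2 difference lay within a 95% interval of -0.27 to 0.27. With PU (91.2, 94.1, 89.4) they lay below DMSO without overlap but were not called (-0.25, adjusted p = 0.105). RGS14 stood at 81.1, 111 and 106 with DMSO, and its libraries with IB (94.4, 99.5, 90.3) and PU (98.5, 96.3, 83.8) fell within that range. With KPT RGS14 fell, to 62.8, 73.6 and 62.3 (-0.57 ± 0.15, adjusted p = 0.000969). KPT library B alone, an arm of 1 library, gave -0.42 (adjusted p = 0.082).

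RGS19, also known as GAIP, acts on G alpha i and G alpha z and is anchored to membranes. In JEKO1 it stood at 368, 351 and 358 normalized counts with DMSO and 561, 476 and 489.7 with IB. The groups did not overlap, and RGS19 rose 1.42-fold (log2 fold change 0.50 ± 0.07 SE, limma adjusted p = 1.92e-05). In MAVER the DMSO libraries stood at 297, 315 and 249, the IB libraries at 199, 245 and 175, the KPT libraries at 152, 148 and 162 and the PU libraries at 149.6, 158 and 188. Every drug library was below every DMSO library, which made RGS19 the only member that fell with all 3 drugs. It fell 1.39-fold with IB (-0.48 ± 0.11, adjusted p = 0.00137), 1.86-fold with KPT (-0.89 ± 0.11, adjusted p = 1.23e-08) and 1.74-fold with PU (-0.79 ± 0.11, adjusted p = 1.19e-07).

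**Figure D2:**
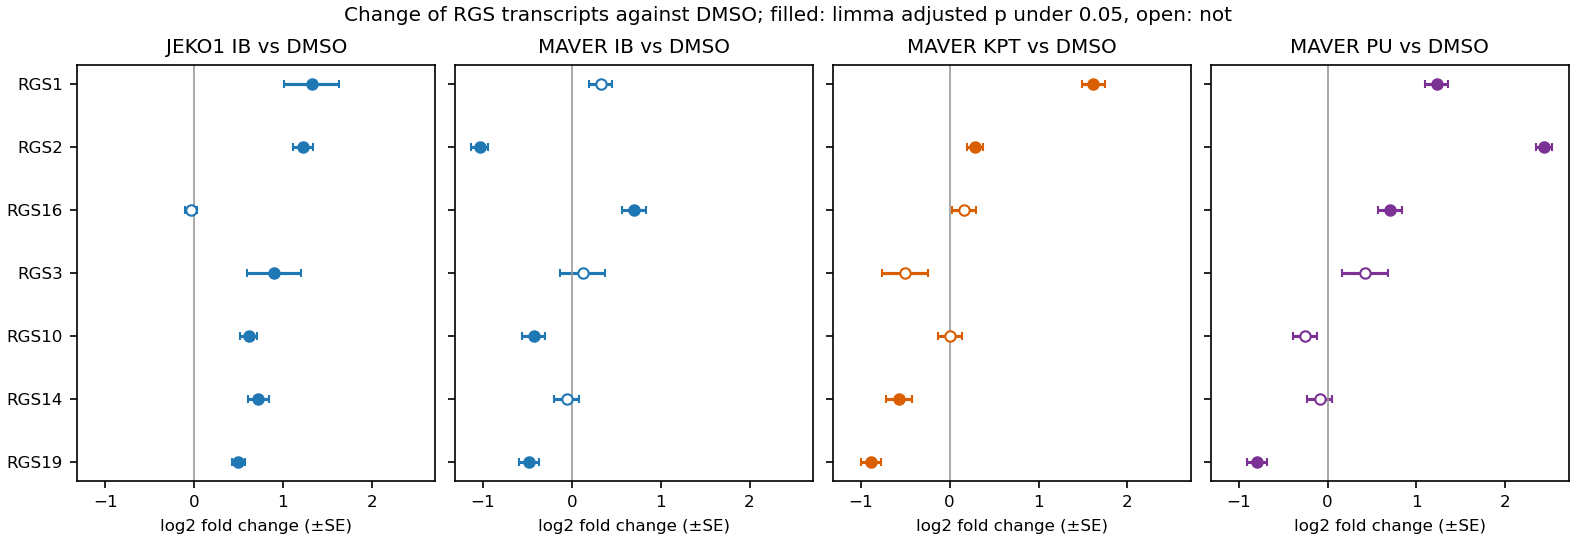
Log2 fold change against DMSO (points) with its SE (bars) for the 7 tested RGS genes in each of 4 comparisons; filled points passed a limma adjusted p under 0.05. JEKO1 IB has 6 filled points, all to the right of 0, while each MAVER comparison has filled points on both sides, with RGS19 on the left in all 3 of them.

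The drugs were then compared within MAVER. Against IB, KPT was higher for RGS1 (log2 difference 1.29), RGS2 (1.32) and RGS10 (0.43) and lower for RGS3 (-0.63), RGS14 (-0.51), RGS16 (-0.54) and RGS19 (-0.41), so 3 members were higher and 4 lower, where 27% and 28.2% of all genes were. The RGS3 call (adjusted p = 0.0369) was lost without any 1 of 4 libraries. The RGS3 difference was about as large without IB library A (-0.62, adjusted p = 0.0742) or KPT library C (-0.65, 0.0584), and smaller without IB library B (-0.45, 0.199) or KPT library B (-0.30, 0.337). The RGS19 call was lost without IB library B (-0.28, 0.0535). KPT library B alone, an arm of 1 library, differed from IB by 0.33 for RGS10 (0.145) and -0.36 for RGS14 (0.142). Against IB, PU was higher for RGS1 (0.90) and RGS2 (3.48) and lower for RGS19 (-0.31, adjusted p = 0.0176), which is 2 higher and 1 lower beside 27.5% and 27.6% of all genes. The RGS19 call was lost without IB library B (0.207), PU library A (0.0989) or PU library B (0.0601). Against KPT, PU was higher for RGS2 (2.16), RGS3 (0.93), RGS14 (0.48) and RGS16 (0.54) and lower for RGS1, which is 4 and 1 beside 28.3% and 28.6% of all genes. The RGS3 difference rests on few reads. It ran from 0.60 to 1.23 when single libraries were left out, with a limma adjusted p of at most 0.0463. Against KPT library B alone, an arm of 1 library, PU differed by 0.33 for RGS14, and RGS1 is given above.

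The IB effect itself differed between the lines for 6 of the 7 tested members. The log2 effect of IB was higher in JEKO1 than in MAVER for 5 members and lower for 1, where it was higher for 21.7% and lower for 19.6% of the 10632 genes tested in both tables. The difference was 2.27 ± 0.17 (SE) for RGS2 (limma adjusted p = 2.5e-11), the largest of the members, since RGS2 rose in one line and fell in the other. It was 1.04 ± 0.16 for RGS10 (adjusted p = 6.19e-06) and 0.98 ± 0.14 for RGS19 (4.29e-06), which likewise rose in JEKO1 and fell in MAVER. For RGS1 (0.997 ± 0.30, adjusted p = 0.00934) the MAVER difference had the same direction as in JEKO1. It was smaller and not called (0.33, 95% interval 0.07 to 0.59). For RGS14 (0.78 ± 0.19, 0.00133) the call in JEKO1 had no counterpart in MAVER. RGS16 went the other way (-0.73 ± 0.14, 0.00019). RGS3 did not pass (0.78 ± 0.41, 0.134), and it did without JEKO1 DMSO library A (adjusted p = 0.0472) or without MAVER DMSO library A (0.0384). The lines share no libraries.

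**Figure D3:**
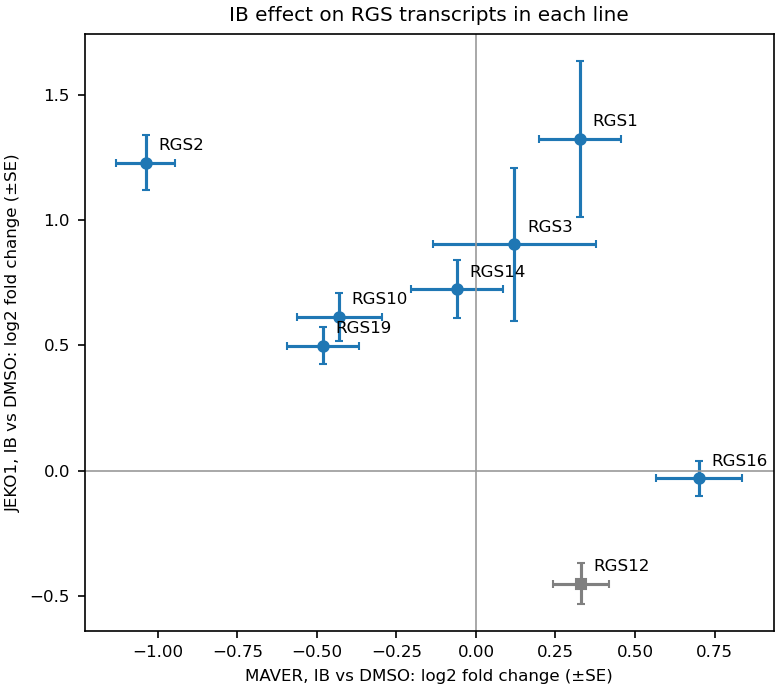
Log2 fold change of IB against DMSO in MAVER (horizontal axis) and JEKO1 (vertical axis) for the 7 tested RGS genes (blue) and RGS12 (grey), with SE bars. RGS2, RGS10 and RGS19 lie in the upper left quadrant, above 0 in JEKO1 and below 0 in MAVER, and RGS12 lies in the lower right.

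The remaining RGS genes of the family were a list of 13, of which 4 were tested in JEKO1 and 2 in MAVER. With IB in JEKO1 0 of these 4 rose and 1 fell, beside 21.9% and 20.2% of all genes. Their median log2 fold change was -0.33, where that of the chosen members was above 0. Because the members were chosen with earlier results known, this contrast is a description and no test. RGS12, a large relative of RGS14 with further binding domains, fell with IB in JEKO1 from 367 ± 26.3 to 268 ± 4.38 normalized counts (SD, n = 3), which is -0.45 ± 0.08 on the log2 scale (SE; limma adjusted p = 0.000132). In MAVER it rose from 278 ± 16.7 to 349.5 ± 8.89 with IB (0.33 ± 0.09, adjusted p = 0.00522) and to 339.7 ± 25 with PU (0.29 ± 0.09, adjusted p = 0.00571). Its direction with IB was thus the reverse of that of RGS2, RGS10 and RGS19 in each line. RGS5, a regulator known from pericytes, was not called in any of the 4 drug against DMSO comparisons. RGS6 had 43.2 ± 1.95 normalized counts in JEKO1 DMSO and was listed at 0 in all MAVER libraries. RGS17 and RGS18 had no reads in either line.

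The rest of the pathway was described by lists of receptors, G protein subunits, receptor kinases and arrestins, and effectors. Their counts are given in the order IB in JEKO1, then IB, KPT and PU in MAVER, and are read against the shares of all genes tested: 21.9%, 10.1%, 27.3% and 27.6% rose and 20.2%, 9.65%, 28.5% and 27.5% fell. Of 29 B cell receptors coupled to G proteins, 18 passed the filter in each line, and 16 passed it in both. With IB in JEKO1 6 rose and 6 fell, in MAVER 5 rose and 4 fell, with KPT 11 rose and 4 fell, and with PU 7 rose and 3 fell. CXCR4, the receptor for the chemokine CXCL12, fell with IB in JEKO1 (log2 fold change -0.71) and rose in MAVER with IB (0.44), KPT (0.57) and PU (0.41). CXCR5, which guides B cells into follicles, rose with IB in JEKO1 from 122 ± 8.27 to 289.5 ± 10.4 normalized counts (SD, n = 3) and fell with KPT in MAVER (-0.79). The prostaglandin receptor PTGER4, which raises cAMP, rose with IB in JEKO1 (1.08) and fell in MAVER with IB (-0.27), KPT (-0.58) and PU (-0.93). S1PR4, a receptor for sphingosine-1-phosphate, fell with IB in JEKO1 (-0.95) and rose in MAVER with IB (1.31), KPT (1.21) and PU (0.83). CCR7, the receptor that draws lymphocytes to the T cell zone, rose in JEKO1 with IB (0.35) and in MAVER with IB (0.48), KPT (0.16) and PU (0.79). GPR183, an oxysterol receptor that positions B cells, fell in JEKO1 (-0.32) and rose in MAVER with IB (0.37), KPT (0.66) and PU (0.17). The list medians were 0.14, -0.02, 0.43 and 0.06, beside medians over all genes of -0.01, -0.01, -0.001 and 0.01.

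Of 13 G alpha genes, the direct targets of RGS proteins, 7 were tested in JEKO1 and 8 in MAVER. In that order 2, 3, 2 and 3 rose and 1, 2, 1 and 2 fell, with medians of 0.09, -0.06, 0.02 and 0.07. With KPT these are 2 and 1 of 8, no more than the 27.3% and 28.5% of all genes. GNAI2, the main inhibitory G alpha subunit of lymphocytes, rose with IB in JEKO1 (log2 fold change 0.30) and fell with IB in MAVER (-0.14). GNAZ, the subunit that RGS19 acts on, rose in MAVER with IB (0.34) and fell with KPT (-0.68) and PU (-0.33). GNA15, a G alpha q relative of blood cells, rose with PU from 12.2 ± 5.97 to 40.4 ± 3.75 normalized counts (SD, n = 3). Of 17 genes in the G beta and gamma list, 14 were tested in JEKO1 and 11 in MAVER. Of these 3, 2, 5 and 3 rose and 3, 1, 2 and 2 fell, with medians of 0.01, -0.03, 0.23 and 0.05. In JEKO1, 3 and 3 of 14 is near the 21.9% and 20.2% of all genes. The list counts GNB1L and GNB2L1, which are G beta-like genes and not G beta subunits. GNB2L1 fell with IB in JEKO1 (-0.26) and rose in MAVER with KPT (0.23, the list median) and PU (0.30). GNB1L rose with IB in MAVER (0.36) and fell with KPT (-0.88). GNG7 fell with IB in JEKO1 (-1.05) and rose in MAVER with IB (1.06), KPT (0.60) and PU (1.29). GNG2 rose with IB in JEKO1 (0.36), fell with IB in MAVER (-0.51) and rose with KPT (0.82).

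Receptor kinases and arrestins end signals at the receptor, where RGS proteins end them at the G protein. Of 8 such genes 6 were tested in each line, and 5 were tested in both. In the same order 3, 1, 2 and 1 rose and 2, 1, 3 and 2 fell, with medians of 0.49, -0.06, 0.03 and 0.17. Over all genes 21.9%, 10.1%, 27.3% and 27.6% rose and 20.2%, 9.65%, 28.5% and 27.5% fell. With IB in JEKO1, 3 and 2 of 6 lie above those shares. A list of 6 genes is too small to read its counts against them. GRK3, listed as ADRBK2, rose with IB in JEKO1 (log2 fold change 0.67) and fell in MAVER with IB (-0.52), KPT (-0.17) and PU (-0.23). GRK2, listed as ADRBK1, fell with IB in JEKO1 (-0.29) and rose in MAVER with IB (0.44), KPT (0.27) and PU (0.24). GRK5, the neighbour of RGS10, rose with IB in JEKO1 (0.63) and fell with KPT in MAVER (-1.18), where it had few reads. The arrestin gene ARRB2 fell with IB in JEKO1 (-0.20) and with PU in MAVER (-0.59) and rose with KPT (0.27).

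Effectors carry the signal of G protein subunits into the cell. Of 29 effector genes 20 were tested in JEKO1 and 17 in MAVER, of which 9, 2, 5 and 5 rose and 3, 2, 4 and 4 fell, with medians of 0.13, -0.03, -0.07 and -0.05. With KPT and PU, 5 and 4 of 17 lie near the shares of all genes (27.3% and 28.5%, and 27.6% and 27.5%). The phospholipase gene PLCB3, an effector of G alpha q, rose with IB in JEKO1 from 149 ± 9.3 to 349.7 ± 48.1 normalized counts (SD, n = 3) and fell with PU in MAVER (log2 fold change -0.86). With PU the adenylyl cyclase gene ADCY7 rose from 1368 ± 52.1 to 3647 ± 102, while ADCY3, another adenylyl cyclase, fell from 290.5 ± 9.82 to 131 ± 7.42. PRKACB, a catalytic subunit of the cAMP-dependent kinase, rose with PU from 736 ± 14.4 to 2367 ± 128 and fell with IB in JEKO1 (-0.62). These PU values stand beside the COL1A1 values given above for the same libraries. PIK3CG, the kinase that G beta and gamma subunits activate, fell with IB in MAVER (-0.34) and rose with KPT (0.34) and PU (0.21).

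**Figure D4:**
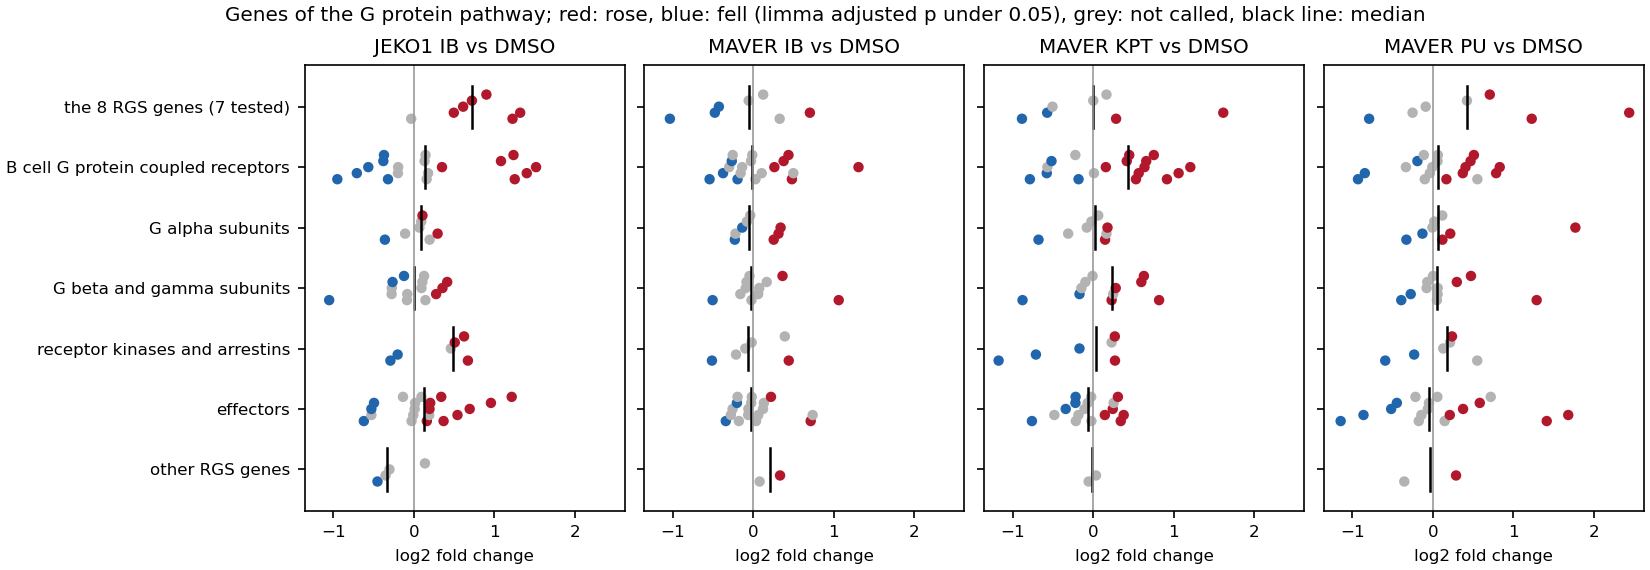
Log2 fold changes of the tested genes of each G protein pathway list in 4 drug against DMSO comparisons (1 point per gene; red rose, blue fell, grey not called; the black line is the list median). The 7 tested RGS genes have a median of 0.72 in JEKO1 with IB, and the receptor list has its highest median, 0.43, with KPT.

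The genes whose levels most resembled each member over the 12 MAVER libraries were taken from 9530 genes with a mean of at least 50 normalized counts. These 12 libraries form 4 treatment groups with 1 normalization, so differences between groups enter every correlation, which is given as a description. For RGS1 they were ICK (Pearson r = 0.982) and RPS6 (0.981), and for RGS2 HMOX1 (0.987), SNX3 (0.987) and MAP1A (0.986). RGS19 was most like RIC8A (0.978), PSMD2 (0.947) and C11orf24 (0.944). RGS10 was most like SPOPL (0.961), SWAP70 (0.943) and C1orf174 (0.931). The closest genes were less close for RGS14 (FAM118B 0.936, REV3L 0.924, STK33 0.921), RGS16 (RIMS3 0.925, SLC9A7 0.925, BRD1 0.922) and RGS3 (CCDC97 0.918, LOC493754 0.881, SPNS1 0.847). Among the members, RGS1 and RGS2 had r = 0.524, RGS1 and RGS19 -0.847, and RGS10 and RGS16 -0.79.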

How the data were processed

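RNA-seq of 18 libraries was used. Per the labels' protocols, these were stranded TruSeq libraries of total RNA, read as single ends of 50 bp. The same protocols name STAR for alignment, Cufflinks for abundance and DESeq2 for testing each drug. FastQC and hg19 appear in the submitters' processing notes, all without versions. The program that counted reads, its strand setting and its annotation were not found in the sources used here, so reads of antisense genes cannot be told apart. The deposited values are normalized counts, a signal per gene in which the authors divided reads by 1 factor per library. Dividing each value by its library's unit gave whole reads, within 0.01 read, for 100% of values.

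Tests used R 4.3.3 and limma 3.58.1 (lmFit, then eBayes with a trend of the variance on the mean). Input was log2(normalized count + 1) of every gene whose mean in the table reached 10. Adjustment was by Benjamini-Hochberg over all genes tested, with a threshold of 0.05. This scale understates changes of genes with few reads, such as RGS1 and RGS3 in JEKO1. The 4 MAVER groups were fitted in 1 model. Whether the lines differ in the IB effect was fitted on the 12 DMSO and IB libraries. Members and lists were chosen with earlier results of these data known. Named genes are all members, up to 3 called genes of each list with the smallest p per drug against DMSO comparison, and the 3 genes most like each member; some genes that this rule takes are left out of the text. RGS5, RGS6, RGS17, RGS18 and COL1A1 were named after their values were seen.

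Alternatives were pseudocounts of 0.5 and 5, no filter or a minimum of 50, other scalings, eBayes without trend, the replicate block, fits of each pair of groups alone, leaving out libraries, and edgeR 4.0.16 and DESeq2 1.42.0 on recovered reads. The fits were tested on simulated data. Promoter windows come from RefSeq (GRCh38.p14), not the build of the files. Protein sequences were not used here.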

Additional observations from a re-analysis of the deposited data

Results flagged for a closer look

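The IB effect (log2 fold change, IB against DMSO) differed between the lines, by the interaction test given in the report (limma, JEKO1 minus MAVER), for 6 members, listed here because the drug label was the same. The differences were 0.997 for RGS1, 2.27 for RGS2, 1.04 for RGS10, 0.78 for RGS14 and 0.98 for RGS19, all higher in JEKO1, and -0.73 for RGS16. For RGS2, RGS10 and RGS19 all 3 libraries with IB lay above DMSO in JEKO1 and below it in MAVER. The share of all genes with this pattern was not counted. Exchanged labels in JEKO1 cannot be told apart from opposite responses. JEKO1 DMSO library C, rich in RNA45S5, belongs to the comparison, and the 6 calls in JEKO1 were kept without it.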

How the results depend on the processing

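Of 56 tested member values, from 8 comparisons that reuse libraries, 39 were called. Over all genes, the share called in 1 direction ran from 9.65% (IB in MAVER, lower) to 28.6% (PU against KPT, lower). Over 698 refits of called values, 668 kept the direction and the call and 30 kept the direction but lost the call, which touched 11 of the 39. Over 293 refits of values that were not called, 268 stayed so with the same sign, 8 became called and 17 changed sign. Refits whose filter removed a member are not among these counts. A minimum mean of 50 removed RGS1 and RGS3 in JEKO1 (means 16.3 and 20.1 normalized counts) and RGS3 in MAVER (40.7). The count of members called moved by over 1.5 times in 1 case, PU against KPT with KPT replicates A and C left out. That refit leaves 1 KPT library and takes its spread from the other libraries, so its count is not read. Counts over all genes moved by that much in 0 of 143 refits. Calls lost without any library left out were RGS3 in JEKO1 (no variance trend 0.0532, DESeq2 0.0817), RGS2 with KPT (no trend 0.0551), RGS19 in PU against IB (no trend 0.0687), and RGS3 in KPT against IB (no filter 0.126, upper quartile 0.0506, no trend 0.141, DESeq2 0.0798), all adjusted p. Without the trend RGS10 became called with PU against DMSO (0.0251) and against KPT (0.0244). Signs that changed were those of small log2 differences: RGS10 with KPT (-0.0164 at equal totals, -0.0961 with KPT replicates A and C left out) and RGS16 in PU against IB (-0.042 at equal totals, -0.0027 by DESeq2). When each library was left out, the range spanned 0 for RGS16 in JEKO1 (-0.101 to 0.0248), for RGS3 (-0.180 to 0.310) and RGS14 (-0.20 to 0.0273) with IB in MAVER, and for RGS10 with KPT (-0.071 to 0.0492). It also did for RGS14 (-0.0743 to 0.0414) and RGS16 (-0.0389 to 0.083) in PU against IB and for RGS19 in PU against KPT (-0.0038 to 0.160). The causes were not tested. Same-lettered libraries had correlated deviations of -0.036 to 0.118 over 3 pairs in JEKO1 and -0.092 to 0.104 over 18 pairs in MAVER, so the letters were not taken to pair the samples. With the replicate block all 56 member values kept their direction and side of the threshold, with 6 members called in JEKO1. Depth limits RGS13 and, in JEKO1, RGS1 and RGS3.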
